A study of Mus musculus with 30 samples.

Results

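The interaction of cisplatin (CDDP) with a pump delivering recombinant acyl-CoA-binding protein (Rec-ACBP) was measured in mouse liver as a 2 by 2 design, in 20 of the 30 mRNA libraries of the study. The 4 groups of 5 libraries were PBS, CDDP, Rec-ACBP and Rec-ACBP+CDDP, taken by their treatment labels. All animals were wild-type female C57BL/6 J mice, aged 8 weeks at the implantation of an osmotic pump filled with PBS or with ACBP at 2.5 mg/mL, and CDDP followed after 72 hours to induce anorexia. The label CDDP names no pump, and it is read here as cisplatin with a PBS pump, the other content the protocol gives. The dose of CDDP and the time from CDDP to tissue collection were not given in the labels. No group had food restricted alone, so cisplatin and reduced eating cannot be told apart. Of 48440 genes in the deposited table, 15851 passed the filter on low counts and were tested, and the interaction passed the threshold in 2425 of them. Genes were sorted by the interaction and by the 2 simple cisplatin effects. Suppressed genes had a called effect of CDDP against PBS and a called interaction of opposite sign. Retained genes had called effects in the same direction under both pumps and no called interaction. ACBP-specific genes had a called effect of Rec-ACBP+CDDP against Rec-ACBP and a called interaction, with no called effect of CDDP against PBS. There were 2388 suppressed (15.1% of those tested), 6 retained (0.0379%) and 2 ACBP-specific genes (0.0126%). Another 35 genes (0.221%) had a called interaction with neither effect called, and 1 gene (0.00631%), the noncoding RNA 1700061I17Rik, was called under the Rec-ACBP pump alone with no called interaction.

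Cisplatin forms crosslinks in DNA, and the damage activates p53, a transcription factor that raises genes of cell cycle arrest, DNA repair and apoptosis. The protein ACBP, also called diazepam-binding inhibitor and encoded by Dbi, binds long-chain acyl-CoA esters inside cells and is also released from them, and its level in blood affects appetite and lipid metabolism. The liver answers inflammation and reduced eating with acute phase proteins, stress transcription factors and shifts in amino acid and lipid enzymes, and it holds resident macrophages (Kupffer cells) and blood lymphocytes beside its hepatocytes.

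Reads counted on genes ranged from 15147974 in a PBS library to 18479134 in a CDDP library. The liver label was borne out by Alb (albumin), at 28800 to 99500 CPM (counts scaled to a common library size) in the 20 libraries, and by a hepatocyte marker mean of 10.6 to 12 log2 CPM. Skeletal muscle transcripts were present in some libraries of every group, with list means of 8.63 log2 CPM in PBS replicate 2, 6.4 in Rec-ACBP replicate 2 and 6.87 in Rec-ACBP+CDDP replicate 2, then 4.63 and 3.65 in CDDP replicates 5 and 1, 4.49 in PBS replicate 3 and 3.87 in Rec-ACBP+CDDP replicate 3, against a lowest value of -1.85. Brain transcripts were highest in Rec-ACBP replicate 4. CDDP libraries varied most among themselves, with a median SD of 0.514 on the log2 scale against 0.282 in PBS, 0.3 in Rec-ACBP and 0.411 in Rec-ACBP+CDDP. Nothing in the labels says whether the 5 libraries of a group came from separate animals, so p-values measure only the spread between these samples.

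Cisplatin changed the liver transcriptome widely under the PBS pump, and little of that change passed the test under the Rec-ACBP pump. CDDP differed from PBS in 6004 genes (37.9% of those tested), 3287 higher and 2717 lower, at a Benjamini-Hochberg adjusted p under 0.05 in edgeR's quasi-likelihood test. Rec-ACBP+CDDP differed from Rec-ACBP in 9 genes (0.0568%), 6 higher and 3 lower, with 635 at an unadjusted p under 0.05. The difference between these 2 effects, the interaction, was called in 2425 genes (15.3%), 1079 with a higher (6.81%) and 1346 with a lower value (8.49%) under the Rec-ACBP pump. Rec-ACBP without cisplatin differed from PBS in 0 genes by edgeR (0%), with 584 at an unadjusted p under 0.05 and 1 called by DESeq2. Rec-ACBP+CDDP differed from CDDP in 4827 genes (30.5%). Among the 2388 suppressed genes, 1327 followed a rise and 1061 a fall after CDDP alone. In all 2388 the cisplatin effect under the Rec-ACBP pump was not called, and in 2319 of them (97.1%) Rec-ACBP+CDDP differed from CDDP. The interaction is built from the same libraries and includes that comparison, so the 97.1% is no separate support. The effect of CDDP against PBS enters the interaction with opposite sign, which favours sorting as suppressed.

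The 2 cisplatin effects come from different libraries and can be set side by side. The 6004 genes called under the PBS pump had a median absolute log2 fold change of 1.04 there. Their median change under the Rec-ACBP pump, taken in the direction of the first, was 0.05, and 3565 of them (59.4%) kept the sign. For the 846 genes changed at least 4-fold under the PBS pump, these medians were 2.5 and 0.19. Choosing genes by their call or size under the PBS pump raises the first median of each pair, so the 2 are not measured alike. Another 3610 genes (22.8%) were called under the PBS pump with an interaction that was not called, and in these the medians were 0.91 and 0.12, with a median standard error (SE) of the interaction of 0.37. Those 3610 genes belong to neither class, since their effect was called neither as retained nor as different. The remaining 9809 genes (61.9%) were called in neither cisplatin effect and not for the interaction. Across all 15851 genes the 2 effects had a Pearson r of 0.152, a description across genes, which are not replicates. At the threshold of the interaction stood Dync1li1 (log2 -0.79, adjusted p = 0.0499) and Gm3362 (-1.5, 0.0499) inside it, and Rfx1 (1.14, 0.0501) and Gdap2 (-0.6, 0.0501) outside it.

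**Figure D1:**
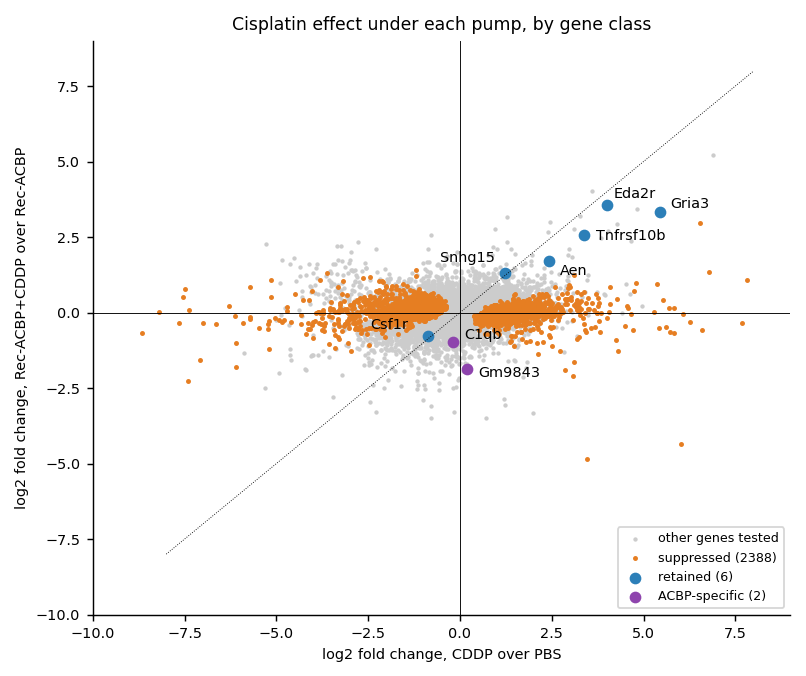
Log2 fold change of CDDP over PBS (horizontal) against that of Rec-ACBP+CDDP over Rec-ACBP (vertical) for each of the 15851 genes tested, with the 2388 suppressed genes in orange, the 6 retained in blue and the 2 ACBP-specific in purple. Suppressed genes lie in a band along the horizontal axis, and the dotted line marks equal effects, near which Csf1r, Snhg15 and Eda2r lie.

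The count of the interaction depended on the libraries used. It ranged from 1692 without Rec-ACBP+CDDP replicate 4 to 3136 without CDDP replicate 1 when each library was left out in turn. It was 944, with 939 suppressed, without the 4 muscle- or brain-rich libraries (PBS replicate 2, Rec-ACBP replicates 2 and 4 and Rec-ACBP+CDDP replicate 2), and 1022, with 1012 suppressed, without Rec-ACBP+CDDP replicates 3 and 4.

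Of the 6 retained genes, 4 were on the list of p53 targets. That list was written with earlier results of these data known, so its shares are a description and no independent support. Of 36 p53 targets tested, 25 rose and 1 fell after CDDP under the PBS pump, against 20.7% of all genes rising. Under the Rec-ACBP pump 4 rose (Eda2r, Tnfrsf10b, Aen and Gria3), against 0.0379% of all genes. The median log2 fold change of the 36 was 1.21 under the PBS pump and 0.67 under the Rec-ACBP pump, where all genes tested had medians of 0.01 and 0.03. Of the 26 members called under the PBS pump, 23 (88.5%) kept the sign under the Rec-ACBP pump and 15 reached an unadjusted p under 0.05 there, all 15 with the same sign. For the 6004 genes called under the PBS pump, the sign was kept in 59.4%, and 253 had an unadjusted p under 0.05 with the same sign. Other lists ranged widely. The sign was kept in 100% of 22 called proteasome genes, 93.3% of 15 of the unfolded protein response and 20.8% of 24 acute phase genes. Of these, 0, 1 and 0 reached such a p with the same sign. More did in some lists, with 9 of 10 called Kupffer cell and macrophage markers and 9 of 31 interferon-stimulated genes. The same held for 8 of 21 male-high liver genes and 2 of 7 MHC class II genes.

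Eda2r (ENSMUSG00000034457, chrX:97333840-97377216 of GRCm38) encodes a receptor of the tumour necrosis factor family for ectodysplasin A2. Its levels were 0.307, 0.838, 0.186, 0.125 and 0.255 CPM in PBS and 3.62, 7.93, 6.95, 6.05 and 3.53 CPM in CDDP. Under the Rec-ACBP pump they were 0.129, 0.194, 0.362, 0.184 and 0.309 CPM without and 2.43, 3.65, 3.93, 2.49 and 1.76 CPM with cisplatin. Every library given CDDP was above every library without it under either pump, although the levels without CDDP rest on few reads. The log2 fold change of Eda2r was 4 (SE 0.44, adjusted p = 5.78e-06) under the PBS pump and 3.55 (SE 0.45, adjusted p = 0.00197) under the Rec-ACBP pump, and the interaction was -0.45 with a 95% interval of -1.79 to 0.89. Tnfrsf10b (chr14:69767472-69784411), the mouse death receptor for TRAIL, stood at 0.497 to 0.897 CPM in PBS and 3.85 to 12.7 CPM in CDDP. It stood at 0.45, 0.452, 0.543, 0.369 and 0.556 CPM in Rec-ACBP and at 2.73, 3.54, 5.13, 1.04 and 1.83 CPM in Rec-ACBP+CDDP, again with no overlap. Its cisplatin effect was 3.37 (adjusted p = 1.16e-05) and 2.57 (adjusted p = 0.0224), and the interaction was -0.8 with an interval of -1.99 to 0.39.

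Aen (chr7:78895854-78911209), an exonuclease of apoptotic DNA breakdown induced by p53, had 9.39, 13.6, 11.6, 14.1 and 11.2 CPM in PBS and 61.8, 80.3, 48.4, 54.5 and 78.4 CPM in CDDP. It had 9.65, 11, 8.02, 8.85 and 11.9 CPM in Rec-ACBP and 35.9, 29.2, 65, 16.3 and 16 CPM in Rec-ACBP+CDDP. Cisplatin libraries were higher under either pump without overlap, by 2.43 (adjusted p = 1.16e-05) and 1.72 (adjusted p = 0.0246) on the log2 scale. Gria3 (chrX:41400854-41678601), a subunit of AMPA-type glutamate receptors, rose from 0.319 to 0.749 CPM in PBS to 5.54 to 42.9 CPM in CDDP, and from 0.517 to 1.91 CPM in Rec-ACBP to 4.81 to 30 CPM in Rec-ACBP+CDDP. Its log2 fold changes were 5.44 and 3.34, and although its interaction of -2.1 was not called (adjusted p = 0.064), its interval of -3.68 to -0.52 leaves out 0. The interaction of Gria3 was called in 5 of 30 alternatives, which ends its retained class there: with DESeq2 (adjusted p = 0.0221), in the fit of all 30 libraries (0.037), without CDDP replicate 4 (0.0274), without Rec-ACBP+CDDP replicate 3 (0.0173) and without its replicates 3 and 4 (0.0447). Snhg15, a long noncoding host of a small nucleolar RNA, was the other retained gene that rose, by 1.24 under the PBS pump and by 1.32 (SE 0.23, adjusted p = 0.0246) under the Rec-ACBP pump. Its 5 Rec-ACBP libraries lay at 3.42 to 6.15 CPM and its 5 Rec-ACBP+CDDP libraries at 8.79 to 20.6 CPM. Without any 1 of the 5 Rec-ACBP libraries, Eda2r alone of these genes kept its call under the Rec-ACBP pump. Without the 4 muscle- or brain-rich libraries 0 of all genes were called there by edgeR, and the adjusted p of Eda2r was 0.0501. DESeq2 called 56 genes and limma voom 17 genes under the Rec-ACBP pump, with 35 and 11 of them retained.

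Promoter sequence of p53 targets is shown because these genes made up most of the retained response. A search on both strands for the p53 half-site, the decamer bound by a p53 dimer, found a match in 12 of 37 windows (32.4%) of the p53 targets and in 973 of 13859 windows (7.02%) of all genes tested, each window running from upstream of a RefSeq start (GRCm38.p6) to 50 bases after it. RefSeq windows were matched by symbol for 27 of the 36 targets. Of the 6 retained genes, 3 had a window and 1, Aen, had a match. Cdkn1a and Mdm2, also shown, were not among the retained genes. Capitals mark the match, which is a description of letters and no evidence of binding. The 2 matches in Cdkn1a begin 73 and 51 bases before 1 of its RefSeq starts. That in Aen begins 121 bases before 1 of its starts, and that in Mdm2 186 bases before its start. Another window of Cdkn1a (chr17:29093519-29093768) and another of Aen (chr7:78895677-78895926) held 0 matches before the start. The stretch of Aen lies within an exon annotated in GENCODE vM21. All lines read 5′ to 3′ on the gene's strand, plus for Aen and Cdkn1a and minus for Mdm2.
Aen, chr7:78895927-78895956: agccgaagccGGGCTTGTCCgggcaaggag
Cdkn1a, chr17:29090896-29090925: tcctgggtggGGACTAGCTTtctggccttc
Cdkn1a, chr17:29090918-29090947: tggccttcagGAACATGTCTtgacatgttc
Mdm2, chr10:117710925-117710954: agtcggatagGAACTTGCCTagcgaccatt

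Other p53 targets fell into different classes. Cdkn1a (p21, an inhibitor of cyclin-dependent kinases) stood at 6.63, 6.52, 1.86, 0.812 and 0.702 CPM in PBS and at 155, 416, 214, 321 and 453 CPM in CDDP. It stood at 10.5, 6.14, 1.99, 1.84 and 2.53 CPM in Rec-ACBP and at 64.6, 38.5, 53, 5.21 and 16.5 CPM in Rec-ACBP+CDDP. The Rec-ACBP+CDDP libraries were all below the CDDP libraries, and 1 of them, replicate 4, lay within the range of Rec-ACBP. Its cisplatin effect was 6.55 (adjusted p = 1.14e-05) under the PBS pump and 2.95 (SE 0.68, adjusted p = 0.184) under the Rec-ACBP pump, and the interaction of -3.6 (SE 0.94, adjusted p = 0.0149) was called. Btg2, an antiproliferative cofactor of mRNA deadenylation, had an interaction of -4.7 (adjusted p = 0.0101), with a cisplatin effect of 4.65 under the PBS pump and -0.05 under the Rec-ACBP pump. Sesn2, a stress sensor that restrains mTORC1, and Ei24 were the other suppressed members, with interactions of -2.47 (adjusted p = 0.0221) and -0.9 (adjusted p = 0.0228). These 4 of 36 are a share of 11.1%, against 15.3% of all genes. The interactions of Sesn2 and Ei24 were not called without the 4 muscle- or brain-rich libraries, and those of Btg2, Sesn2 and Ei24 not without Rec-ACBP+CDDP replicates 3 and 4.

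In 18 of the 36 the effect was called under the PBS pump alone and the interaction was not called, against 22.8% of all genes. Mdm2, the ubiquitin ligase that limits p53, was at 35.5 to 39.4 CPM in PBS and 76.6 to 117 CPM in CDDP. Its levels were 42.5, 33.7, 30.7, 33.5 and 39.4 CPM in Rec-ACBP and 71, 62.5, 140, 47 and 51.9 CPM in Rec-ACBP+CDDP, without overlap. The log2 fold changes of 1.19 (adjusted p = 0.000473) and 1.05 (adjusted p = 0.121) differed by -0.14, with an interval of -0.8 to 0.52. Zmat3, an RNA-binding target of p53, had values of 2.3 and 1.25, Ccng1 (cyclin G1) of 1.75 and 1.28, and Polk (a translesion DNA polymerase) of 0.94 and 1.08, with adjusted p of 0.201 to 0.461 under the Rec-ACBP pump. Phlda3, an inhibitor of Akt, had values of 3.1 and 2.78 (adjusted p = 0.46), but its Rec-ACBP+CDDP libraries (1.91 to 28.2 CPM) overlapped Rec-ACBP (1.54 to 5.17 CPM) and were all below CDDP (35.6 to 66.5 CPM). Its interaction was -0.32, and -2.54 (adjusted p = 0.0261) without PBS replicate 2, the library richest in muscle transcripts, where Phlda3 was at 21 CPM against 0.491 to 1.74 CPM in the other PBS libraries. The mean of the p53 list per library was 3.02 to 3.52 log2 CPM in PBS, 4.47 to 5.27 in CDDP, 3.01 to 3.37 in Rec-ACBP and 3.43 to 4.51 in Rec-ACBP+CDDP. All 5 Rec-ACBP+CDDP libraries were above all 5 Rec-ACBP libraries, and only replicate 3 reached the range of CDDP. Of 37 DNA repair genes, 6 rose and 3 fell after CDDP under the PBS pump, shares below the 20.7% and 17.1% of all genes. Under the Rec-ACBP pump 0 were called, against 0.0568% of all genes. The 4 suppressed members are also a share below the 15.1% of all genes, among them Pcna (the replication clamp, interaction -0.99) and Fanca (of the Fanconi crosslink repair complex, 1.38).

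**Figure D2:**
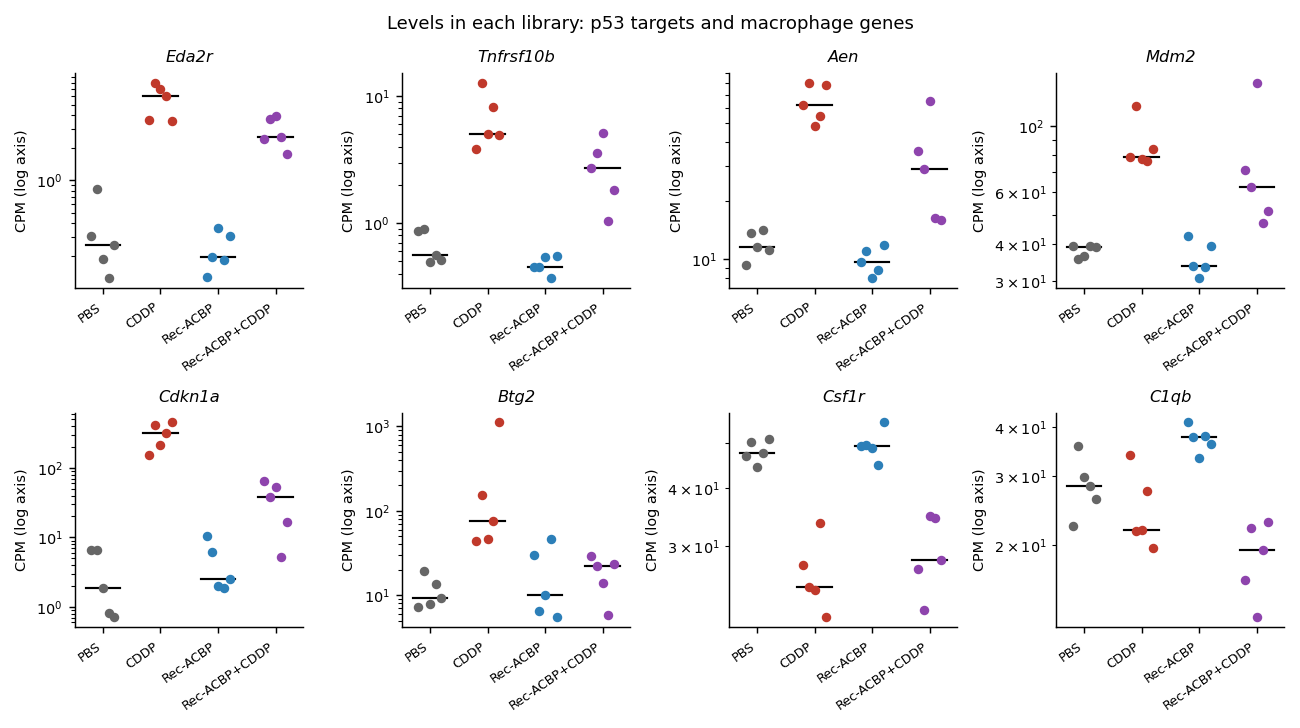
CPM on a log axis in each library of the 4 groups for p53 targets and macrophage genes, with 5 points for the 5 libraries of a group and a bar at the median. Eda2r, Tnfrsf10b, Aen and Mdm2 are higher with CDDP under both pumps without overlap, Cdkn1a and Btg2 overlap under the Rec-ACBP pump, Csf1r is lower under both, and C1qb is lower under the Rec-ACBP pump alone.

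Macrophage markers had negative medians under both pumps, although few passed the test under the Rec-ACBP pump. Of 16 Kupffer cell and macrophage markers, 9 fell and 1 rose after CDDP under the PBS pump (17.1% of all genes fell), and 2 fell under the Rec-ACBP pump (0.0189%). Their median log2 fold change was -0.82 under the PBS pump and -0.93 under the Rec-ACBP pump, and the median interaction was 0.09. All 10 members called under the PBS pump kept their sign under the Rec-ACBP pump, and 9 of them had an unadjusted p under 0.05 there. In bulk liver, fewer cells of a type and less RNA per cell cannot be told apart. The list mean was 4.01 to 4.4 log2 CPM in PBS, 3.07 to 3.85 in CDDP, 4.17 to 4.55 in Rec-ACBP and 2.95 to 3.8 in Rec-ACBP+CDDP, with no overlap between libraries with and without cisplatin.

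Csf1r, the receptor for macrophage colony-stimulating factor, was at 47, 50.4, 44.5, 47.7 and 51 CPM in PBS and at 27.3, 24.5, 24.1, 33.6 and 21 CPM in CDDP. It was at 49.4, 49.5, 48.8, 44.9 and 55.5 CPM in Rec-ACBP and at 26.7, 21.8, 34.8, 34.4 and 28 CPM in Rec-ACBP+CDDP. It was thus lower after cisplatin under either pump in every library, by a log2 change of -0.88 (SE 0.14, adjusted p = 0.000108) and -0.77 (SE 0.14, adjusted p = 0.0388), with an interaction of 0.11 and an interval of -0.3 to 0.53. Its call under the Rec-ACBP pump was lost in 20 of 30 alternatives, with log2 values from -0.96 to -0.69. Just outside the threshold under the Rec-ACBP pump were P2ry13, a nucleotide receptor (-1.78, adjusted p = 0.0733), and Timd4, a receptor for phosphatidylserine on resident Kupffer cells (-1.23, adjusted p = 0.0733), while Snhg15 and Csf1r stood just inside. Timd4 was at 3.73 to 7.54 CPM in PBS, 1.34 to 2.36 CPM in CDDP, 5.55 to 7.97 CPM in Rec-ACBP and 2.19 to 4.09 CPM in Rec-ACBP+CDDP. The scavenger receptor Cd163 had values of -1.24 and -1.16 under the PBS and Rec-ACBP pumps (adjusted p = 0.000646 and 0.101), and Cd5l, a secreted macrophage protein, of -1.21 and -0.88 (0.000243 and 0.215). DESeq2 called 8 of the 16 markers lower under the Rec-ACBP pump, voom 5 and the fit of all 30 libraries 6.

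C1qb, a chain of complement C1q made by macrophages, was 1 of the 2 ACBP-specific genes. Its levels were 22.4, 35.8, 29.8, 28.3 and 26.3 CPM in PBS and 34, 21.7, 21.9, 27.5 and 19.7 CPM in CDDP, which overlap. They were 41.2, 37.9, 33.5, 38.1 and 36.2 CPM in Rec-ACBP and 16.3, 22.2, 13.1, 19.5 and 23 CPM in Rec-ACBP+CDDP, which do not. Rec-ACBP+CDDP also overlapped CDDP, and the Rec-ACBP range lay mostly above that of PBS. The cisplatin effect was -0.19 (adjusted p = 0.399) and -0.99 (adjusted p = 0.0246), and the interaction was -0.8 (SE 0.24, adjusted p = 0.0323). The call of C1qb under the Rec-ACBP pump was lost in 11 of 30 alternatives, with log2 values from -1.09 to -0.87. Without any 1 of the 5 Rec-ACBP libraries there were 0 ACBP-specific genes. The chains C1qa and C1qc had effects under the Rec-ACBP pump of -1.05 (adjusted p = 0.0956) and -1.09 (adjusted p = 0.148), and their interactions of -0.34 and -0.67 were not called. The interaction of C1qb was not called without PBS replicate 1 or 5, CDDP replicate 4 or Rec-ACBP+CDDP replicate 3, nor without the 4 muscle- or brain-rich libraries (-0.94, adjusted p = 0.0625), nor without Rec-ACBP+CDDP replicates 3 and 4 (-0.68, adjusted p = 0.101). The other ACBP-specific gene, Gm9843, is annotated as a processed pseudogene (chr16:76403251-76403652), so its reads may be shared with a near-identical parent gene and its value is uncertain; its interaction was -2.08 (adjusted p = 0.00554), from 28.2 to 58.3 CPM in Rec-ACBP and 6.66 to 13.5 CPM in Rec-ACBP+CDDP. Marco, a scavenger receptor, went against its list: it rose under the PBS pump from 3.68 to 11.6 CPM in PBS to 27.3 to 115 CPM in CDDP, stood at 9.83 to 18.3 CPM in Rec-ACBP and 6.72 to 26.8 CPM in Rec-ACBP+CDDP, and was suppressed (interaction -2.41, adjusted p = 0.00615).

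Genes that answer interferon, and those of antigen presentation by MHC class II, were lower in CDDP and mostly unresolved under the Rec-ACBP pump. Of 40 interferon-stimulated genes, 28 fell and 3 rose after CDDP under the PBS pump, 0 were called under the Rec-ACBP pump, 6 were suppressed and 25 were called under the PBS pump alone. Over all genes 17.1% fell, and 22.8% were called under the PBS pump alone with no called interaction. With 0.0568% of all genes called under the Rec-ACBP pump, the 0 there is not particular to this list. The 15.1% of all genes that were suppressed is near the share of this list. Their medians were -1.09 and -0.31, and 26 of the 31 called members (83.9%) kept their sign. Oas2, a synthetase of the 2-5A messenger that activates RNase L, stood at 22.8, 15.9, 17, 21.6 and 26.7 CPM in PBS and at 3.51, 3.35, 3.89, 3.66 and 1.6 CPM in CDDP. It stood at 18.7, 19.3, 18, 18.1 and 18 CPM in Rec-ACBP and at 9.23, 6.41, 14.4, 17.7 and 9.67 CPM in Rec-ACBP+CDDP. All Rec-ACBP+CDDP libraries lay above CDDP and below Rec-ACBP, while 1 of them, at 17.7 CPM, lay within the range of PBS. The interaction of Oas2 was 2.01 (SE 0.35, adjusted p = 0.00152), with effects of -2.69 and -0.68 (adjusted p = 0.807). Ifit3, which binds foreign RNA with its partner proteins, had effects of -2.67 and -0.57 and an interaction of 2.11 (adjusted p = 0.00941), and the GTPase Gbp3 had -1.77 and -0.28 and 1.49 (adjusted p = 0.00542). The calls of Ifit3 and Gbp3 were lost without the 4 muscle- or brain-rich libraries, where 2 list members were called.

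The promoter of Ifit3 is shown as an example, since members of this list moved together. The motif TTTC, any 2 bases, TTTC, the core of the interferon-stimulated response element, was searched on both strands and matched 18 of 34 windows (52.9%) of the list, against 432 of 13859 (3.12%) of all genes tested. RefSeq windows (GRCm38.p6) were matched by symbol for 30 of the 40 genes. The line gives the bases before the start on the plus strand, with the 2 matches in capitals.
Ifit3, chr19:34583279-34583528: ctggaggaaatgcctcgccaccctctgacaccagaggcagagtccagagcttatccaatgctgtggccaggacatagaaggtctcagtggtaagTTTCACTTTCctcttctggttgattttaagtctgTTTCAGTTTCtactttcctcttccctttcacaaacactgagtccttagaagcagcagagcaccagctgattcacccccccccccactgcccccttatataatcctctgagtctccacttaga

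All 7 MHC class II genes fell in CDDP, and 0 of 7 had a called interaction. Over all genes 17.1% fell and 15.3% had a called interaction. Their medians were -2.13 under the PBS pump and -0.83 under the Rec-ACBP pump, and all 7 kept their sign, 2 of them with an unadjusted p under 0.05. H2-Ab1, a beta chain, was at 23.8 to 30.9 CPM in PBS, 0.561 to 8.91 CPM in CDDP, 22.1 to 48.2 CPM in Rec-ACBP and 13.8 to 24.2 CPM in Rec-ACBP+CDDP. Its interaction of 1.63 (adjusted p = 0.0573) was not called, although every Rec-ACBP+CDDP library lay above every CDDP library (adjusted p = 0.00358). Cd74, the invariant chain, had 20.6 to 43.4 CPM in Rec-ACBP+CDDP, below the 51 to 95.7 CPM of Rec-ACBP and above the 1.2 to 17.3 CPM of CDDP. limma voom called the interaction in 4 of the 7 and DESeq2 in 1.

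Genes whose cisplatin response differed between the pumps included most acute phase proteins, which hepatocytes secrete in inflammation. Of 29 such genes, 24 rose in CDDP, 0 were called under the Rec-ACBP pump and 21 were suppressed. Over all genes 20.7% rose and 15.1% were suppressed. With 0.0568% of all genes called under the Rec-ACBP pump, a count of 0 there is not particular to any list. Their medians were 1.87 and -0.27, with a median interaction of -2.19. Apcs (serum amyloid P component) stood at 71.8, 88.3, 78.8, 100 and 61.9 CPM in PBS and at 381, 286, 294, 362 and 416 CPM in CDDP. It stood at 103, 143, 101, 103 and 111 CPM in Rec-ACBP and at 107, 134, 73.9, 68.2 and 75.1 CPM in Rec-ACBP+CDDP. The CDDP libraries were above all others, and the Rec-ACBP+CDDP libraries overlapped those of Rec-ACBP. The interaction was -2.41 (SE 0.28, adjusted p = 3.47e-05). Lcn2, an iron-sequestering lipocalin, had 111 to 1890 CPM in CDDP, 7.74 to 14.8 CPM in PBS, 9.71 to 89.8 CPM in Rec-ACBP and 10.6 to 31.8 CPM in Rec-ACBP+CDDP, with an interaction of -6.51 (adjusted p = 0.000628). Fga, the fibrinogen alpha chain, had an interaction of -2.56 (adjusted p = 0.00143). CDDP replicate 5 was the highest of its group in this list, with a mean of 10.9 log2 CPM against 8.19 to 9.09 in the other CDDP libraries. The serum amyloids Saa1 and Saa2, which are near-identical copies, had interactions of -6.59 and -7.19 and are uncertain one from the other.

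Immediate early genes, transcribed within minutes of a stimulus, were suppressed in part: of 19 tested, 12 rose and 1 fell in CDDP and 8 were suppressed, with medians of 1.91 and -0.06. The shares of all genes were 20.7% rising, 17.1% falling and 15.1% suppressed. Myc, a growth-promoting transcription factor, had 2.11 to 4 CPM in PBS, 8.56 to 94.5 CPM in CDDP, 1.55 to 5.87 CPM in Rec-ACBP and 1.55 to 7.8 CPM in Rec-ACBP+CDDP, and an interaction of -3.5 (adjusted p = 0.00365). Egr1, a zinc finger factor, had an interaction of -4 (adjusted p = 0.00773), with Rec-ACBP libraries between 15.5 and 273 CPM. Of 18 genes of the IL-6 and STAT3 pathway, 8 rose, 1 fell and 3 were suppressed, near the 15.1% of all genes, among them Stat3 itself (interaction -1.25, adjusted p = 0.0442) and Cebpd (-2.56, adjusted p = 0.0109). Without the 4 muscle- or brain-rich libraries, as without Rec-ACBP+CDDP replicates 3 and 4, the count of called immediate early genes was 4.

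Cytosolic ribosomal proteins formed the list with the highest share of suppressed members among the 58 lists examined. Of 40, 37 rose in CDDP, 0 were called under the Rec-ACBP pump and all 37 were suppressed, with medians of 1.33 and -0.12. Among all genes tested, 20.7% rose, 15.1% were suppressed and 0.0568% were called under the Rec-ACBP pump. Rpl3, of the large subunit, stood at 94, 120, 127, 124 and 98.1 CPM in PBS and at 515, 877, 441, 457 and 919 CPM in CDDP. It stood at 143, 144, 131, 142 and 177 CPM in Rec-ACBP and at 238, 167, 126, 100 and 189 CPM in Rec-ACBP+CDDP, where the ranges overlap. Its interaction was -2.36 (SE 0.34, adjusted p = 0.000432), and those of Rpl12 and Rps4x were -1.72 (adjusted p = 0.000361) and -2.06 (adjusted p = 0.000925). The share of reads on ribosomal protein genes was 4.06% ± 0.571 (SD, n = 5) in CDDP and 2% ± 0.125 in PBS, a difference with an exact 2-sided permutation p of 0.00794, the smallest that 5 against 5 allows, and 0.0181 after adjustment over 16 tests of library shares. It was 2.13% ± 0.354 in Rec-ACBP+CDDP and 2.31% ± 0.191 in Rec-ACBP (exact permutation p = 0.373, n = 5). The count of suppressed ribosomal protein genes was lower, with 28 and 32 lower interactions called, without the 4 muscle- or brain-rich libraries and without Rec-ACBP+CDDP replicates 3 and 4.

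Transcripts of the mitochondrial genome moved the other way. All 12 tested fell in CDDP, with a median of -1.68, and 9 of them were suppressed, against a median of -0.11 under the Rec-ACBP pump. Over all genes 17.1% fell and 15.1% were suppressed. mt-Co1, a core subunit of cytochrome c oxidase, had 31200 to 42100 CPM in PBS, 5890 to 10100 CPM in CDDP, 23000 to 36800 CPM in Rec-ACBP and 16400 to 38500 CPM in Rec-ACBP+CDDP, and an interaction of 2.03 (SE 0.34, adjusted p = 0.00142). Mitochondrial reads made up 3.44% ± 0.423 (SD, n = 5) of the reads that fell on genes in CDDP, against 11.4% ± 1.83 in PBS (exact permutation p = 0.00794), and 9.18% ± 3.01 in Rec-ACBP+CDDP and 9.77% ± 1.46 in Rec-ACBP (exact permutation p = 0.69). The share of all reads that fell on genes was also higher in CDDP, at 41% ± 1.33 (SD, n = 5), than in PBS at 37.4% ± 0.873 and in Rec-ACBP+CDDP at 37.6% ± 0.902 (exact permutation p = 0.00794 for each, adjusted 0.0181). Both shares are also measures of RNA and library quality, and their part in the other results was not tested. Reads without a unique alignment made up 6.22% to 7.32% of all reads in CDDP and 8.02% to 12.3% in all other libraries. The TMM scaling factor was 0.705 in CDDP replicate 5 and 0.919 to 1.18 in all other libraries. The part of these 2 measures in the results was not tested either. Of 48 nuclear genes of the respiratory chain, 11 rose and 8 fell in CDDP and 2 were suppressed. Their rise and fall are near the 20.7% and 17.1% of all genes, and their suppressed share is below the 15.1%. The number of mitochondrial genes called for the interaction was 4 without the 4 muscle- or brain-rich libraries and 5 without Rec-ACBP+CDDP replicates 3 and 4.

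**Figure D3:**
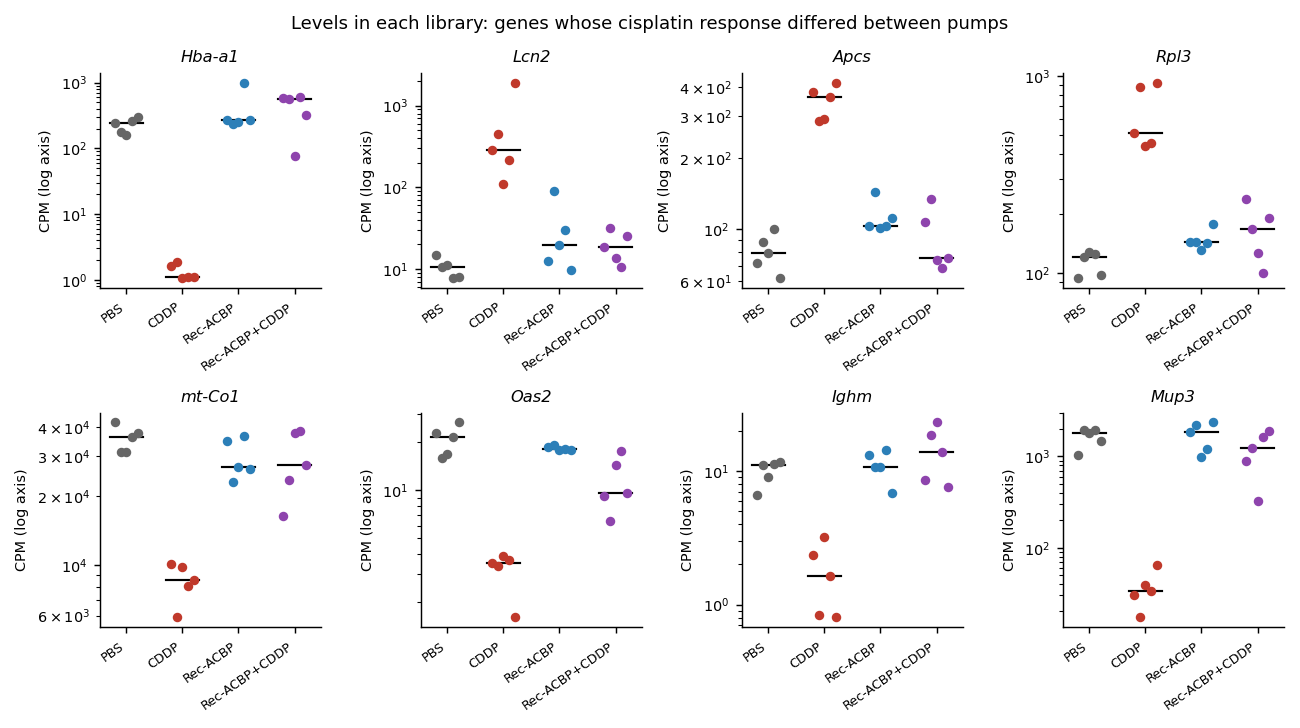
CPM on a log axis in each library for 8 genes with a called interaction, with 5 points for the 5 libraries of a group and a bar at the median. In each panel the 5 CDDP libraries stand apart from PBS, and the Rec-ACBP+CDDP libraries lie in or near the range of Rec-ACBP, with Oas2 between CDDP and Rec-ACBP.

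Transcripts of red blood cells and B cells were lower in CDDP and not in Rec-ACBP+CDDP, and globins had the highest interaction values of all genes with it called, Hbb-bs at 8.25 and Hba-a2 at 8.23. Hba-a1, an alpha globin of red blood cells, had 240, 179, 158, 262 and 298 CPM in PBS and 1.61, 1.84, 1.06, 1.12 and 1.12 CPM in CDDP. It had 273, 231, 251, 989 and 267 CPM in Rec-ACBP and 583, 573, 77.3, 605 and 324 CPM in Rec-ACBP+CDDP. All CDDP libraries were far below every other library, and Rec-ACBP+CDDP overlapped Rec-ACBP. The interaction was 7.49 (SE 0.71, adjusted p = 3.11e-06). Of 7 erythroid genes 4 were suppressed, against 15.1% of all genes. All 4 of them were globins, whose copies are near-identical and uncertain one from the other. Alas2, which makes heme in red cell precursors, had effects of -0.95 (adjusted p = 0.0174) and 0.18, and its interaction of 1.13 was not called (adjusted p = 0.0704).

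Of 14 B and plasma cell markers, 13 fell in CDDP, 0 were called under the Rec-ACBP pump and 12 were suppressed, with medians of -2.77 and 0. For this and the next lists, the shares of all genes were 17.1% falling, 20.7% rising and 15.1% suppressed. With 0.0568% of all genes called under the Rec-ACBP pump, the 0 there is not particular to B cells. Ighm, the mu heavy chain, stood at 6.57, 11.1, 9.07, 11.4 and 11.6 CPM in PBS and at 2.36, 0.838, 3.22, 1.63 and 0.802 CPM in CDDP. It stood at 13.3, 10.7, 10.8, 14.5 and 6.86 CPM in Rec-ACBP and at 8.56, 18.6, 23.2, 13.8 and 7.58 CPM in Rec-ACBP+CDDP, within or above the range of Rec-ACBP. The interaction was 2.83 (SE 0.5, adjusted p = 0.00185), and that of Cd79b, of the B cell receptor, was 2.89 (adjusted p = 0.00675). The number of these markers called was 7 without the 4 muscle- or brain-rich libraries and 3 without Rec-ACBP+CDDP replicates 3 and 4, with list medians of the interaction of 2.89 and 2.44 against 2.86. T and NK cell markers fell too, 12 of 15, with medians of -1.82 and -0.33, but only Cd3d was suppressed (interaction 2.67, adjusted p = 0.0273). Neutrophil genes rose in CDDP: 3 of 7 were called and suppressed, S100a8 and S100a9 (subunits of calprotectin) with interactions of -3.85 (adjusted p = 0.00377) and -2.19 (adjusted p = 0.03), and Chil3, a chitinase-like protein, with -8.01 (adjusted p = 0.00259). The list mean of B and plasma cell markers was -2 to -0.174 log2 CPM in CDDP and 0.655 to 2.06 in Rec-ACBP+CDDP, with no overlap.

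**Figure D4:**
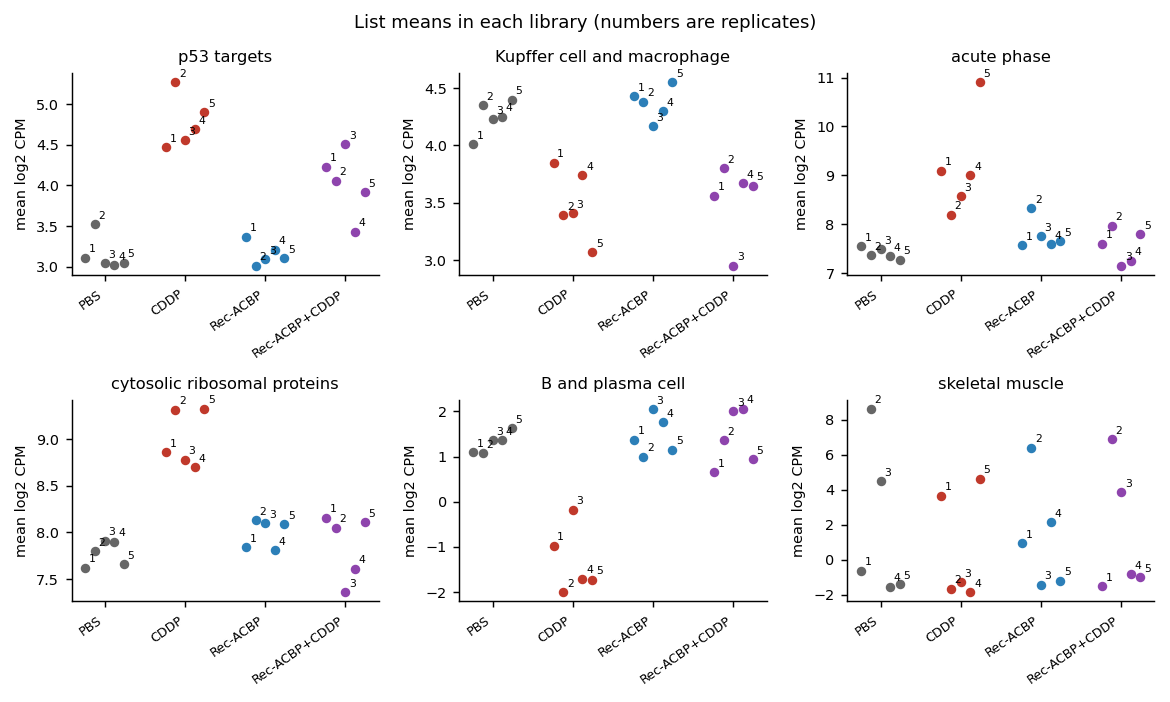
Mean log2 CPM of 6 gene lists in each library of the 4 groups, with each point labelled by its replicate number. The p53 list is higher and the macrophage list lower with CDDP under both pumps, the acute phase, ribosomal protein and B cell lists differ between CDDP and Rec-ACBP+CDDP, and the muscle list is highest in replicate 2 of PBS, Rec-ACBP and Rec-ACBP+CDDP.

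Among genes of hepatocytes, the major urinary proteins (pheromone carriers that growth hormone controls and males make in greater amount) had some of the largest falls. Of 27 male-high liver genes, 19 fell and 2 rose in CDDP, 0 were called under the Rec-ACBP pump and 12 were suppressed, with medians of -2.79 and -0.55. The shares of all genes were 17.1% falling, 20.7% rising, 0.0568% called under the Rec-ACBP pump and 15.1% suppressed. Mup3 had 1040, 1930, 1800, 1950 and 1480 CPM in PBS and 30.6, 17.2, 39.4, 33.2 and 65 CPM in CDDP. It had 1860, 2230, 984, 1210 and 2370 CPM in Rec-ACBP and 900, 1240, 328, 1650 and 1910 CPM in Rec-ACBP+CDDP. Every CDDP library was below every other library, and the interaction was 4.95 (SE 0.57, adjusted p = 3.47e-05). Members of the Mup family are near-identical, and their counts are uncertain one from the other. Of 21 called members of the list, 20 (95.2%) kept their sign under the Rec-ACBP pump, 8 of them with an unadjusted p under 0.05. limma voom called the interaction in 4 of the list, against 13 in edgeR, and edgeR called it in 7 without the 4 muscle- or brain-rich libraries.

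Pericentral genes, which Wnt signals from the central vein maintain, fell in CDDP in 11 of 22 and rose in 1, and 9 were suppressed, with medians of -0.68 and 0.17. Among all genes tested, 17.1% fell, 20.7% rose and 15.1% were suppressed. The 9 suppressed pericentral genes included the feedback genes of Wnt signalling Rnf43, Notum and Axin2 and the transcription factor Tbx3. Rnf43, a ubiquitin ligase that removes Wnt receptors, stood at 31.1 to 47.9 CPM in PBS, 7.06 to 16.7 CPM in CDDP, 21.6 to 30.7 CPM in Rec-ACBP and 22.6 to 53.7 CPM in Rec-ACBP+CDDP, with an interaction of 2.23 (adjusted p = 0.000722). Axin2, of the beta-catenin destruction complex, had an interaction of 2.03 (adjusted p = 0.0037). Glul and Cyp2e1, abundant pericentral enzymes, were called in neither cisplatin effect, at -0.5 and -0.11 for Glul and at -0.01 and -0.08 for Cyp2e1. Of 21 circadian genes, 7 fell and 4 rose in CDDP and 5 were suppressed, led by the output factor Dbp, at 139 to 577 CPM in the PBS and Rec-ACBP groups, 9.16 to 71.9 CPM in CDDP and 188 to 576 CPM in Rec-ACBP+CDDP (interaction 3.8, adjusted p = 0.00185).

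Members of hepatocyte stress pathways rose in CDDP, and some of them were suppressed, against 20.7% of all genes rising and 15.1% suppressed. Of 30 targets of NRF2, the regulator of antioxidant genes, 16 rose and 1 fell, and 8 were suppressed. They included Srxn1 (sulfiredoxin, interaction -3.28, adjusted p = 0.00232), Nqo1 (a quinone reductase, -1.41, adjusted p = 0.00669) and Hmox1 (heme oxygenase, -1.46, adjusted p = 0.0168). Of 30 targets of ATF4, the factor of amino acid shortage, 14 rose and 2 fell and 11 were suppressed. Asns (asparagine synthetase) stood at 0.862 to 7.73 CPM in CDDP and 0.0579 to 0.784 CPM in Rec-ACBP+CDDP (interaction -6.35, adjusted p = 0.00162). Its interaction also takes in the difference between Rec-ACBP and PBS, so these 2 low ranges do not give its whole size. Of 24 genes of the unfolded protein response 15 rose and 6 were suppressed, and the sensor Atf6 had an interaction of -1.05 (adjusted p = 0.00357). Proteasome subunits rose in 22 of 31 with 5 suppressed, near the share of all genes. Another 17 were called under the PBS pump alone, against 22.8% of all genes. All 22 kept their sign under the Rec-ACBP pump at medians of 0.98 and 0.16, the first raised by the choice of called genes. Of these 22, 0 reached an unadjusted p under 0.05 under the Rec-ACBP pump. Aminoacyl-tRNA synthetases rose in 10 of 20 and 6 were suppressed, led by Hars (interaction -1.1, adjusted p = 0.00215). Without the 4 muscle- or brain-rich libraries, 5 NRF2 targets, 5 ATF4 targets and 1 proteasome gene were called for the interaction, while DESeq2 called 11 proteasome genes on all 20.

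Metabolic genes moved in both directions, with shares of suppressed members that were mostly near the 15.1% of all genes. Of 25 genes of cholesterol synthesis and uptake, 14 rose in CDDP and 5 were suppressed. Of 39 genes of fatty acid oxidation and ketogenesis, 5 rose, 8 fell and 5 were suppressed. Fabp1, the main fatty acid carrier of the hepatocyte, had 3090 to 5070 CPM in PBS, 117 to 1220 CPM in CDDP, 3160 to 5710 CPM in Rec-ACBP and 2180 to 3660 CPM in Rec-ACBP+CDDP (interaction 2.47, adjusted p = 0.00606). The peroxisomal thiolase Acaa1b and the acyl-CoA synthetase Acsl1 had interactions of 2.67 (adjusted p = 0.000433) and 1.02 (adjusted p = 0.00621). Apoa4, an apolipoprotein, had 448 to 38100 CPM in CDDP and 146 to 421 CPM in Rec-ACBP+CDDP (interaction -5.68, adjusted p = 0.00143). Igfbp1, which binds insulin-like growth factors and rises when insulin is low, had 250 to 13200 CPM in CDDP and 13.9 to 160 CPM in Rec-ACBP+CDDP (interaction -5.12, adjusted p = 0.00701). Of 20 gluconeogenesis genes, 10 rose and 3 were suppressed, while the rate-setting enzyme Pck1 was called in neither effect (-0.18 and -0.33). Cps1, the entry enzyme of the urea cycle, had 2410 to 3260 CPM in CDDP against 398 to 1300 CPM across the 3 other groups (interaction -1.6, adjusted p = 0.00357).

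**Figure D5:**
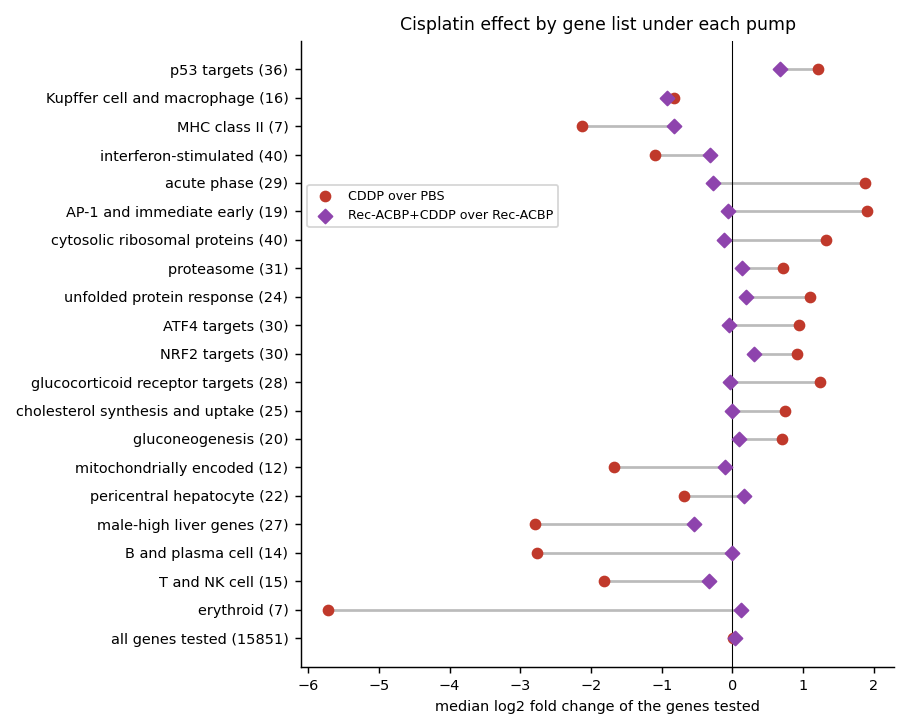
Median log2 fold change of the tested members of 20 gene lists and of all genes tested, for CDDP over PBS (red circles) and for Rec-ACBP+CDDP over Rec-ACBP (purple diamonds), with the number of genes tested in brackets. The p53 list lies to the right of 0 and the macrophage list to its left under both pumps, and for most other lists the purple diamonds lie near 0.

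Dbi, the mouse gene of ACBP itself, was called in none of these comparisons. It stood at 525, 551, 761, 713 and 578 CPM in PBS and at 1180, 846, 925, 783 and 322 CPM in CDDP. It stood at 662, 684, 483, 600 and 789 CPM in Rec-ACBP and at 1150, 939, 479, 483 and 793 CPM in Rec-ACBP+CDDP. All 4 ranges overlap, and the interaction was -0.12 (SE 0.4, adjusted p = 0.868), with an interval of -0.94 to 0.71. These reads measure the liver's own transcript and not the delivered protein. Of 6 tested genes of acyl-CoA-binding proteins, 1 was suppressed, the Golgi protein Acbd3 (interaction -0.95, adjusted p = 0.0313), a share near the 15.1% of all genes.

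Among named genes outside the lists, Hectd2, Dleu2 and Aldh3b3 had the smallest interaction p-values. Hectd2, a ubiquitin ligase of the HECT class, had 49.9 to 69.3 CPM in PBS, 1.84 to 6.41 CPM in CDDP, 51.7 to 83.3 CPM in Rec-ACBP and 59.6 to 93.6 CPM in Rec-ACBP+CDDP (interaction 3.83, adjusted p = 2.76e-06). Hectd2 and Dleu2 overlap genes on the opposite strand, so their reads are uncertain. The same holds for Cdkn1a, Ei24, Polk, Csf1r, P2ry13, Oas2, Stat3, Cebpd, Rpl3, Rpl12, mt-Co1, Rnf43, Notum, Tbx3, Dbp, Hars, Acaa1b, Apoa4 and Acbd3, and overlap was not examined for every gene named. Aldh3b3, an aldehyde dehydrogenase, had 8.35 to 28.2 CPM in PBS, 0 to 0.401 CPM in CDDP, 9.37 to 28.7 CPM in Rec-ACBP and 6.58 to 28.6 CPM in Rec-ACBP+CDDP (interaction 6.28, adjusted p = 3.11e-05). In the other direction Sult1e1, the estrogen sulfotransferase, had 68.1 to 283 CPM in CDDP and at most 3.72 CPM in the 15 other libraries (interaction -6.74, adjusted p = 0.0036). Adcy1, a brain-enriched adenylyl cyclase, gave the lowest value, -10.38, with Rec-ACBP replicate 4, the library richest in brain transcripts, at 57.9 CPM and the other 4 Rec-ACBP libraries at 0.124 to 0.452 CPM.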

How the data were processed

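Gene counts of mouse liver mRNA libraries were analysed as deposited. Per the submitters' processing notes, reads were handled with HISAT2 2.2.1 and HTSeq 2.0.3 on mm10, and the deposited table gives raw counts per gene. Per the labels' protocols, RNA was purified on columns and libraries were strand-specific. Neither the labels nor the file name the annotation release or the strand setting of the counting. The 5 summary lines of the counter that name no gene entered neither library sizes nor tests, and the reads without a feature made up 40.9% to 45.6% of all reads. Gene coordinates and biotypes are from GENCODE vM21 (GRCm38), which matched 99.2% of the 48440 identifiers.

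The 20 libraries of the 2 by 2 design were fitted together in edgeR 4.0.16 with 1 mean for each group, TMM scaling, the filterByExpr filter and the quasi-likelihood test, leaving 16 residual degrees of freedom. The 10 libraries of the other treatment were left out. P-values were adjusted by Benjamini-Hochberg over all genes tested, with a threshold of 0.05. The interaction was the cisplatin effect under the Rec-ACBP pump minus that under the PBS pump. CPM used TMM-scaled library sizes, and log2 CPM used a prior count of 2. Shares of reads were compared by exact permutation tests over libraries. Counting error is small for well-expressed genes at 15147974 or more reads on genes per library, and the spread between libraries limits precision there. Counting error is larger for genes at low CPM, among them Eda2r, Tnfrsf10b and Gria3 in libraries without cisplatin. No pair of libraries agreed within sampling noise.

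Members and lists were chosen with earlier results of these data known. Genes are named by size and p-value of the interaction among called genes (mean of 5 CPM or more in any group), by class, and by list, with Dbi always. Alternatives were RLE scaling, other filters, DESeq2 1.42.0, limma 3.58.1 voom, a fit of all 30 libraries, a muscle covariate, other thresholds and leaving out each library. A further 3, without the 4 muscle- or brain-rich libraries, without Rec-ACBP+CDDP replicates 3 and 4, and fits of 2 groups, were chosen after seeing the data. The scripts were tested on simulated counts. R 4.3.3 and Python 3.11.15 were used.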

Additional observations from a re-analysis of the deposited data

Results flagged for a closer look

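The effect of cisplatin differed between the 2 pumps in 2425 genes by the interaction term. A single library stood apart from the other 4 of its group in 8 of 144 groups of values examined, where chance gives about 1 in 20. Apcs was at 143 CPM in Rec-ACBP replicate 2, against 101 to 111 in the others. Hba-a1 was at 989 CPM in Rec-ACBP replicate 4, against 231 to 273, and Igfbp1 at 150 CPM in Rec-ACBP replicate 1, against 46.9 to 55.6. Marco was at 3.68 CPM in PBS replicate 1, against 8.37 to 11.6. Mdm2 was at 117 CPM in CDDP replicate 2, against 76.6 to 83.9, and Oas2 at 1.6 CPM in CDDP replicate 5, against 3.35 to 3.89. Snhg15 was at 20.6 CPM in Rec-ACBP+CDDP replicate 3, against 8.79 to 11.1. The share of reads on ribosomal protein genes was 5.05% in CDDP replicate 2, against 3.64% to 4.02%.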

How the results depend on the processing

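Counts of called genes moved by over 1.5 times as follows, and the cause was not tested. With no filter on low counts there was 1 ACBP-specific gene. DESeq2 gave 56 genes for cisplatin under the Rec-ACBP pump, 1 for Rec-ACBP against PBS, 35 retained, 8 ACBP-specific and 1 enhanced (a larger effect under the Rec-ACBP pump). limma voom gave 17, 11 retained and 2820 for Rec-ACBP+CDDP against CDDP. The fit of all 30 libraries gave 21, 17 retained and 1 ACBP-specific. At an adjusted p under 0.1 there were 3803 interactions, 15 genes under the Rec-ACBP pump, 3695 suppressed, 11 retained and 1 enhanced, and 571 interactions exceeded 1.5-fold by glmTreat. Without the 4 muscle- or brain-rich libraries there were 944 interactions, 939 suppressed, and 0 genes each under the Rec-ACBP pump, retained and ACBP-specific by edgeR. Without Rec-ACBP+CDDP replicates 3 and 4 there were 1022 interactions, 1012 suppressed, 0 ACBP-specific and 2714 for Rec-ACBP+CDDP against CDDP. Fits of only the 2 groups gave 2 genes under the Rec-ACBP pump and 2217 for Rec-ACBP+CDDP against CDDP.

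Leaving out each library in turn gave 1692 to 3136 interactions, 1662 to 3078 suppressed, 1 to 9 retained, 0 to 3 ACBP-specific and 0 to 0 enhanced genes. It gave 5068 to 6329 genes for CDDP against PBS, 1 to 11 under the Rec-ACBP pump, 3776 to 5303 for Rec-ACBP+CDDP against CDDP and 0 to 1 for Rec-ACBP against PBS. No single-gene result that was called changed its sign in these alternatives, while some interactions near 0 that were not called, such as those of Dbi, Csf1r and Snhg15, did. No paired analysis was possible because the labels number the libraries in 1 run and give no pairing across groups.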
